A study of Mus musculus with 8 samples.

Results

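The mitochondrial beta-oxidation enzymes are described here through 10 genes, Acadvl, Acadl, Acadm, Acads, Hadha, Hadhb, Acaa2, Eci1, Decr1 and Etfdh, out of 18193 genes measured. All 17 probe sets that the array annotation gives to exactly 1 of these symbols were taken, out of 45037. Each of the 10 genes had at least 1 such probe set, and no filter on low values was applied. The tissue was whole liver of 2-day-old mice, from 4 Mfp2 -/- animals (knockout) and 4 WT animals (wild type), with total RNA on 1 Affymetrix array per mouse. The labels name no other allele, treatment, strain or sex, and do not say which cells lack Mfp2. Whether litters were shared is not stated, so p-values measure the spread between these 8 samples.

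Beta-oxidation shortens a fatty acyl-CoA by a repeating spiral of an acyl-CoA dehydrogenase, an enoyl-CoA hydratase, a hydroxyacyl-CoA dehydrogenase and a thiolase. In mitochondria the dehydrogenases are separate enzymes for very long, long, medium and short chains, and their electrons pass through electron transfer flavoprotein to the respiratory chain. Peroxisomes run a spiral of their own for very long and branched chains, in which Mfp2 carries the hydratase and dehydrogenase steps. Newborn liver depends on mitochondrial oxidation of milk fat for ketone bodies and to sustain glucose synthesis.

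Values are deposited log2 RMA values, a scale on which a difference of 1 is a doubling, and all differences are knockout minus wild type with the standard error (SE) of limma's fit. A level on this scale cannot be compared between probe sets, so only differences are set side by side. Hsd17b4, the gene of Mfp2, had 4.29, 3.76, 3.25 and 4.05 in the knockout livers, against 8.18, 8.71, 8.97 and 8.15 in the wild type livers. Each array therefore matched its genotype label. Correlations between arrays over all probe sets were 0.983 to 0.993 within groups and 0.976 to 0.989 across groups. RNA quality was read from the actin control, whose 3' probe set exceeded its 5' probe set by values between 0.576 and 0.862 in knockout and between 0.518 and 0.667 in wild type arrays. The 0.862 was that of knockout 1, and the next highest value was 0.723, in knockout 4. Y-linked transcripts were low, and Xist high, in knockout 1, knockout 2 and wild type 3, so sex is not balanced between the groups.

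None of the 10 genes differed between knockout and wild type livers past the threshold, an adjusted p under 0.05 over all probe sets, while all 10 had higher means in the knockout. Eci1, an enoyl-CoA isomerase, stood 1.54-fold higher, Acadm, the medium-chain dehydrogenase, 1.37-fold, and Acadl, the long-chain dehydrogenase, 1.31-fold. Of the genes of later steps, Hadhb stood 1.24-fold higher, Acaa2 1.08-fold and Hadha 1.06-fold, and whether steps differ was not tested. The call rule was met by 0 of the 17 probe sets, with 0.762% of all probe sets called, and by 0 of the 10 genes, with 1.15% of all genes called. At an unadjusted p under 0.05, 7 of the 10 genes were higher and 0 were lower in the knockout, where 6.4% of all genes were higher and 8.18% were lower. By the same rule 7 of the 17 probe sets were higher, where 5.17% of all probe sets were. A higher knockout mean was seen in 53.3% of all genes. The median difference of the 10 genes was 0.32, against 0.01 over all genes. Among the 2140 genes at least as bright as the dimmest member, 48.4% had a higher knockout mean, and the median difference was -0.0070. Of these bright genes 12.2% were higher in the knockout at an unadjusted p under 0.05. The lowest adjusted p of a member was 0.116, in Eci1, and the highest was 0.864, in Hadha.

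**Figure D1:**
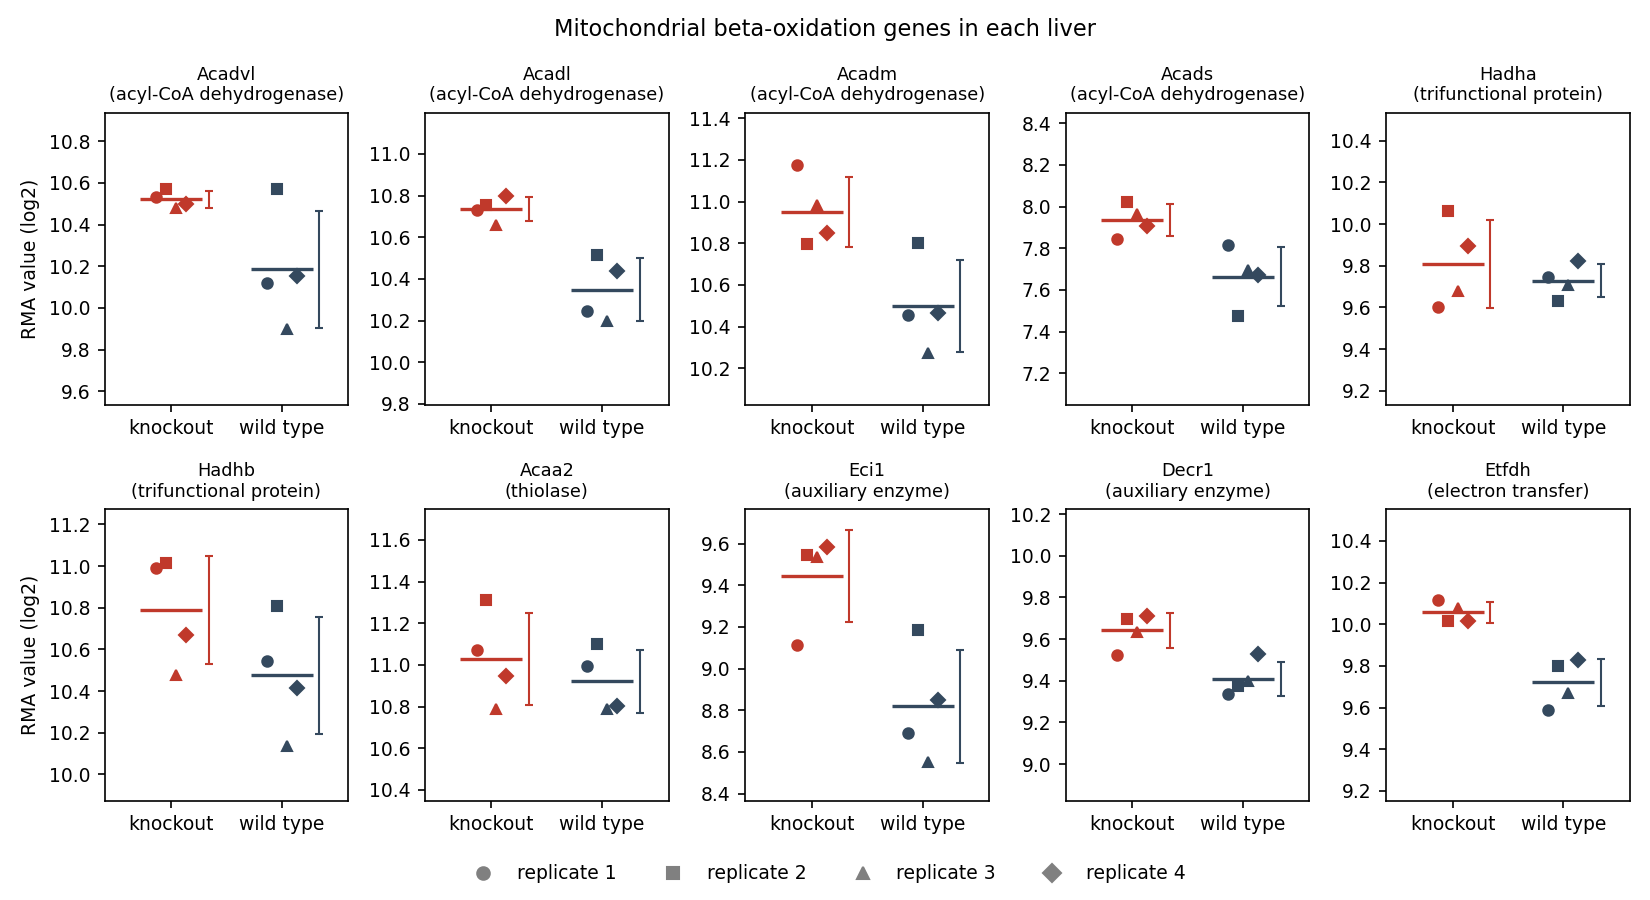
RMA value (log2) of the 10 genes in each liver, knockout left and wild type right, ordered by step of the spiral; symbols mark the replicate, horizontal lines the mean and bars the SD over 4 livers, and each panel spans the same range. Acadl, Acads and Etfdh are the 3 genes whose groups do not overlap.

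The acyl-CoA dehydrogenases open each turn of the spiral, and all 4 had higher means in the knockout, by 0.27 to 0.45. Acadvl, the very long-chain dehydrogenase of the inner membrane, had 10.53, 10.57, 10.48 and 10.50 in the knockout livers, against 10.12, 10.57, 9.90 and 10.15 in the wild type livers. The knockout livers lay close together, with an SD of 0.04 against 0.28 in wild type, and wild type 2 was as high as the highest knockout liver. The difference was 0.34 ± 0.13 (SE, adjusted p 0.357). Acadl, the long-chain dehydrogenase, had 10.73, 10.75, 10.66 and 10.80 in the knockout livers, against 10.24, 10.51, 10.20 and 10.44 in the wild type livers. Every knockout liver was above every wild type liver, with a gap of 0.14. Its difference was 0.39 ± 0.10 (adjusted p 0.125).

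Acadm, the medium-chain dehydrogenase whose human deficiency is screened for in newborns, had 11.18, 10.80, 10.98 and 10.85 in the knockout livers, against 10.46, 10.80, 10.28 and 10.46 in the wild type livers. The groups touched only where knockout 2 met wild type 2, and knockout 1 was the highest liver. The difference was 0.45 ± 0.13 (adjusted p 0.184). Acads, the short-chain dehydrogenase, had 7.84, 8.02, 7.96 and 7.91 in the knockout livers, against 7.82, 7.47, 7.70 and 7.67 in the wild type livers. The groups did not overlap, with a gap of 0.03, and wild type 2 was the lowest of the 8 livers here while it was the highest wild type liver in Acadvl, Acadl and Acadm. The difference was 0.27 ± 0.10 (adjusted p 0.297).

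By chain length the differences ran 0.34 for very long, 0.39 for long, 0.45 for medium and 0.27 for short chains. The gaps between neighbours in this order were smaller than their SE over livers. The log2 ratio of 2 members was taken in each liver and compared between genotypes for 8 pairs chosen after their values were seen, with an exact permutation test, two-sided, in which 4 against 4 livers allow no p below 0.0286. Acadm against Acads gave the widest gap among the 6 dehydrogenase pairs, 0.18 ± 0.21 (SE over livers), with an exact p of 0.429, adjusted to 0.686 over the 8 pairs. The other 5 dehydrogenase pairs had adjusted p of at least 0.686. A lone pair at the floor of 0.0286 would not pass after adjustment over 8 pairs, so likeness between chain lengths is not shown.

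Promoter windows were printed for Acadvl and Acadm because, of the 8 members with a window in the RefSeq promoter table of GRCm38.p6, these 2 hold the nuclear receptor core motif AGGTCA, the letters that PPARalpha with RXR and the estrogen-related receptors bind in longer elements. Each window runs from 250 bases before to 50 bases after the annotated start, 5′ to 3′ on the gene's strand, with the matched letters in capitals (AGGTCA, or TGACCT where the motif lies on the opposite strand). The Acadvl window is chr11:70015379-70015678 and the Acadm window chr3:153944594-153944893, both on the minus strand.
Acadvl: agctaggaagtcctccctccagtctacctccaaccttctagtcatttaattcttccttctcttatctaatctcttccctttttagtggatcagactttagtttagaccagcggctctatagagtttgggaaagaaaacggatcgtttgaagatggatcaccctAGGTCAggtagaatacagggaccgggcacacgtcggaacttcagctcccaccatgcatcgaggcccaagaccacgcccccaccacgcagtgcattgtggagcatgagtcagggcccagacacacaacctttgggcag
Acadm: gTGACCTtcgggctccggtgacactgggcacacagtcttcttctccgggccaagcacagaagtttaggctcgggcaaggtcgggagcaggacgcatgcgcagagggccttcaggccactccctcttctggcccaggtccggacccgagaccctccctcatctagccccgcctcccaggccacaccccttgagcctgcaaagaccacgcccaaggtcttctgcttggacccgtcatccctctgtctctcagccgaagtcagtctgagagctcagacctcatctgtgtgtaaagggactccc
The match begins 87 bases before the start of Acadvl and 249 bases before that of Acadm. On both strands, AGGTCA was found in 16.3% of 32851 promoter windows and in 2 of the 8 members' windows. The direct repeat AGGTCANAGGTCA, which contains AGGTCA, was in 0.0396% of all windows and in 0 of 8, and TCAAGGTCA, which also contains it, was in 0.423% and in 0 of 8. No window was listed for Decr1 or Acaa2. Acadl, Acads and Etfdh, the 3 genes whose groups did not overlap, have no AGGTCA in these windows.

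The mitochondrial trifunctional protein carries the hydratase, hydroxyacyl-CoA dehydrogenase and thiolase steps for long chains, with its alpha subunit encoded by Hadha and its beta subunit by Hadhb. Hadha had 9.60, 10.06, 9.68 and 9.89 in the knockout livers, against 9.75, 9.63, 9.71 and 9.82 in the wild type livers. Knockout 1 was the lowest of all 8 livers and knockout 2 the highest, so the groups overlapped fully. The difference was 0.08 ± 0.12 (adjusted p 0.864), with a 95% interval from -0.18 to 0.34, and it was -0.0037 without knockout 2. Hadhb, by its brightest probe set, had 10.99, 11.01, 10.48 and 10.67 in the knockout livers, against 10.54, 10.81, 10.13 and 10.41 in the wild type livers. Knockout 3 and wild type 3 were the lowest of their groups. The difference was 0.31 ± 0.17 (adjusted p 0.535), and the other 2 probe sets of Hadhb gave 0.07 ± 0.13 and 0.17 ± 0.21.

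Hadha and Hadhb lie head to head on chromosome 5, with 273 bases between their start sites, and 228 bases are in the promoter windows of both. The Hadhb window, chr5:30155003-30155302 on the plus strand in GRCm38.p6, is printed because the subunits of 1 complex lie on either side of it, with the shared bases in capitals.
Hadhb: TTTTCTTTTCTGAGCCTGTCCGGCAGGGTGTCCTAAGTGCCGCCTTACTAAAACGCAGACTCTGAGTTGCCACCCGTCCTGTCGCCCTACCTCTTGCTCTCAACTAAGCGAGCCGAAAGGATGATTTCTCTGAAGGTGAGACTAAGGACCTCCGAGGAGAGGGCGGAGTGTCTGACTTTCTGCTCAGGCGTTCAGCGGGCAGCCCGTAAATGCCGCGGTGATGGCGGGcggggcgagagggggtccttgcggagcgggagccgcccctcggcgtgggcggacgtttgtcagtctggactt
The per-liver log2 ratio of Hadhb to Hadha was higher in the knockout by 0.23 ± 0.22 (SE over livers), with an exact permutation p of 0.371, adjusted to 0.686 over the 8 pairs. Within genotypes, the deviations of Hadhb over the 8 livers were most like those of Acaa2 among the members (r = 0.89), and those of Hadha most like those of Decr1 (r = 0.73).

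Acaa2, the thiolase that releases acetyl-CoA in the mitochondrial matrix, had 11.073, 11.310, 10.786 and 10.947 in the knockout livers, against 10.996, 11.099, 10.788 and 10.802 in the wild type livers. The wild type range lay inside the knockout range, and replicate 2 was highest and replicate 3 lowest in each. The difference was 0.11 ± 0.13 (adjusted p 0.828), with a 95% interval from -0.18 to 0.40. The other 2 probe sets of Acaa2 gave 0.03 ± 0.12 and -0.0019 ± 0.12.

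The auxiliary enzymes let unsaturated fatty acids enter the spiral. Eci1, which moves a double bond into the position that the hydratase accepts, had 9.11, 9.54, 9.54 and 9.58 in the knockout livers, against 8.69, 9.18, 8.55 and 8.85 in the wild type livers. Knockout 1 lay far below the other 3 knockout livers, and wild type 2 was above it. The difference was 0.63 ± 0.16 (adjusted p 0.116). Leaving out wild type 2 gave 0.75 (limma adjusted p 0.0486), while leaving out any other array gave a limma adjusted p between 0.0811 and 0.326. Eci1 differed by 0.39 among the arrays of replicates 1 and 2, and by 0.86 among those of replicates 3 and 4. In replicates 1 and 2 Xist was high in each knockout liver and low in each wild type liver, so genotype and sex coincide there. Decr1, the dienoyl-CoA reductase that removes conjugated double bonds, had 9.53, 9.69, 9.63 and 9.71 in the knockout livers, against 9.34, 9.37, 9.40 and 9.53 in the wild type livers. The lowest knockout liver and the highest wild type liver overlapped by 0.0014. The difference was 0.23 ± 0.09 (adjusted p 0.33), while the dimmer probe set of Decr1 gave -0.18 ± 0.14 (adjusted p 0.7), so the 2 probe sets had opposite signs. The ratio of Eci1 to Decr1 was higher in the knockout by 0.39 ± 0.16 (SE over livers, exact permutation p 0.0571, adjusted 0.457 over the 8 pairs).

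Etfdh, the dehydrogenase that hands electrons from electron transfer flavoprotein to ubiquinone, had 10.12, 10.01, 10.08 and 10.02 in the knockout livers, against 9.59, 9.80, 9.67 and 9.83 in the wild type livers. The groups did not overlap, with a gap of 0.18, the widest among the members. The difference was 0.34 ± 0.09 (adjusted p 0.142). In all, the groups of 3 of the 10 genes did not overlap, all 3 higher in the knockout, while 3.59% of all genes separated in that direction. The dimmer probe sets of Etfdh and Acadl averaged 2.03 and 2.43 in knockout, and 1.96 and 2.25 in wild type livers. These lie below the array medians of 3.68 to 3.73, so they are not shown to be above background.

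**Figure D2:**
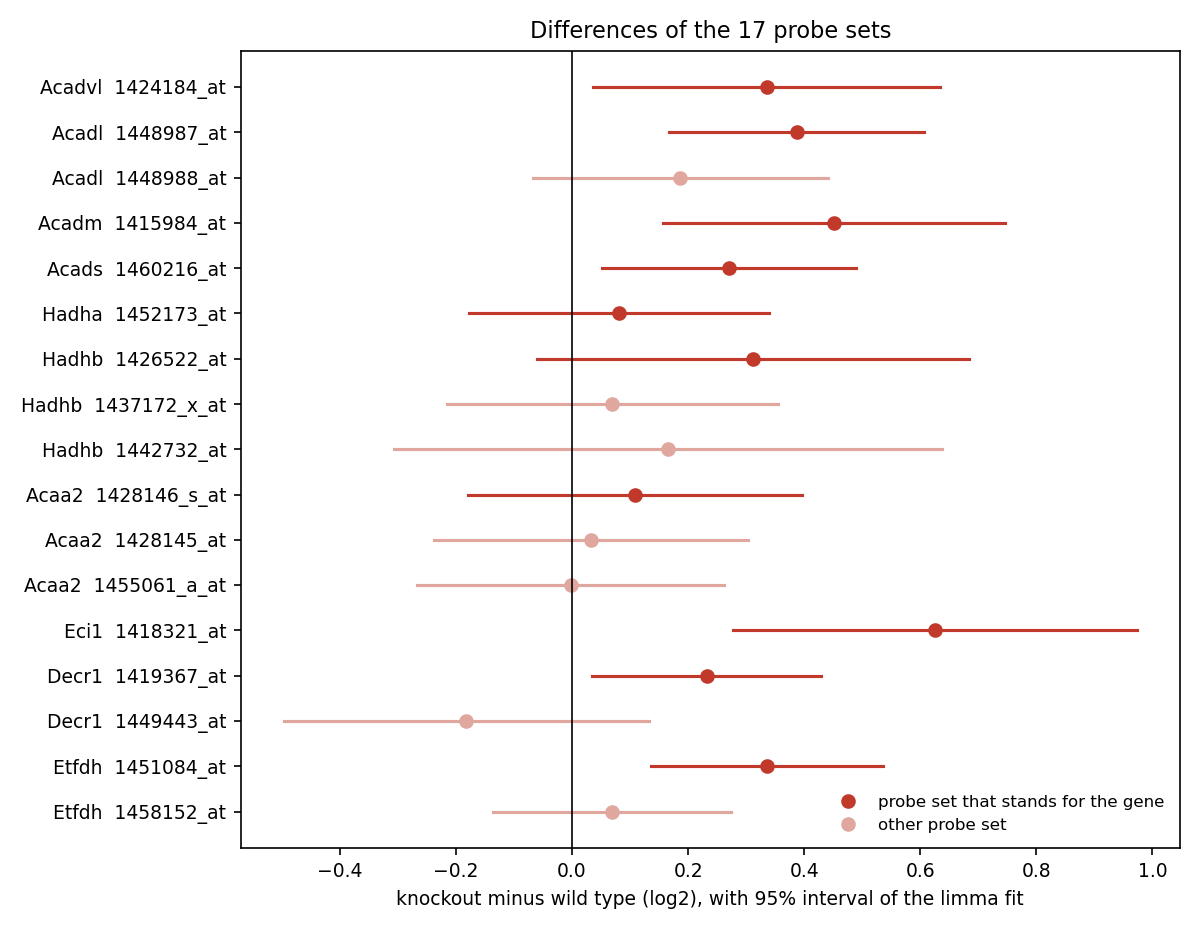
Difference, knockout minus wild type (log2), of all 17 probe sets with its 95% interval from the limma fit, ordered by step of the spiral; dark points are the brightest probe set of a gene and pale points the others. The 7 dark intervals that lie above 0 are those of Acadvl, Acadl, Acadm, Acads, Eci1, Decr1 and Etfdh, and none of these passed after adjustment over all probe sets.

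The livers of a genotype differed among themselves. Knockout 2 was the highest knockout liver in 5 of the 10 genes, while knockout 1 and knockout 3 were each the lowest in 4. Wild type 2 was the highest wild type liver in 6 of the 10 genes, and wild type 3 was the lowest in 6. Set against the wild type mean of each gene, the median over the 10 genes was 0.32, 0.37, 0.30 and 0.30 in knockout 1 to 4, against -0.05, 0.17, -0.14 and 0.02 in wild type 1 to 4. All 4 knockout livers were thus above all 4 wild type livers in this median, and wild type 2 came nearest. The labels name no batches, but a split into 2 sets of arrays was known from an earlier analysis of these data. The first set is replicates 1 and 2, and the other set is replicates 3 and 4. Limma with genotype as a term called 229 of all 45037 probe sets between the sets, 0 of them among the members' 17. With so few calls over all probe sets, 0 of 17 does not show that the members are free of this split. The split is tied to sex. Xist was high in knockout 1 and 2 and low in wild type 1 and 2, so genotype and sex coincide in the first set. In the other set Xist was high in wild type 3 alone. Set and sex therefore cannot be told apart in the knockout livers. The median difference of the 10 genes was 0.31 in the first set and 0.30 in the other. Acadvl differed by 0.21 in the first set and by 0.47 in the other. The count of 7 genes with an unadjusted p under 0.05 was 4 without knockout 2. It was 0 in the first set alone and 4 in the other alone, each a fit of 2 against 2 livers. With the Y-linked mean as a covariate the difference of Eci1 was 0.68 (limma adjusted p 0.0529) and the median of the 10 genes 0.32.

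**Figure D3:**
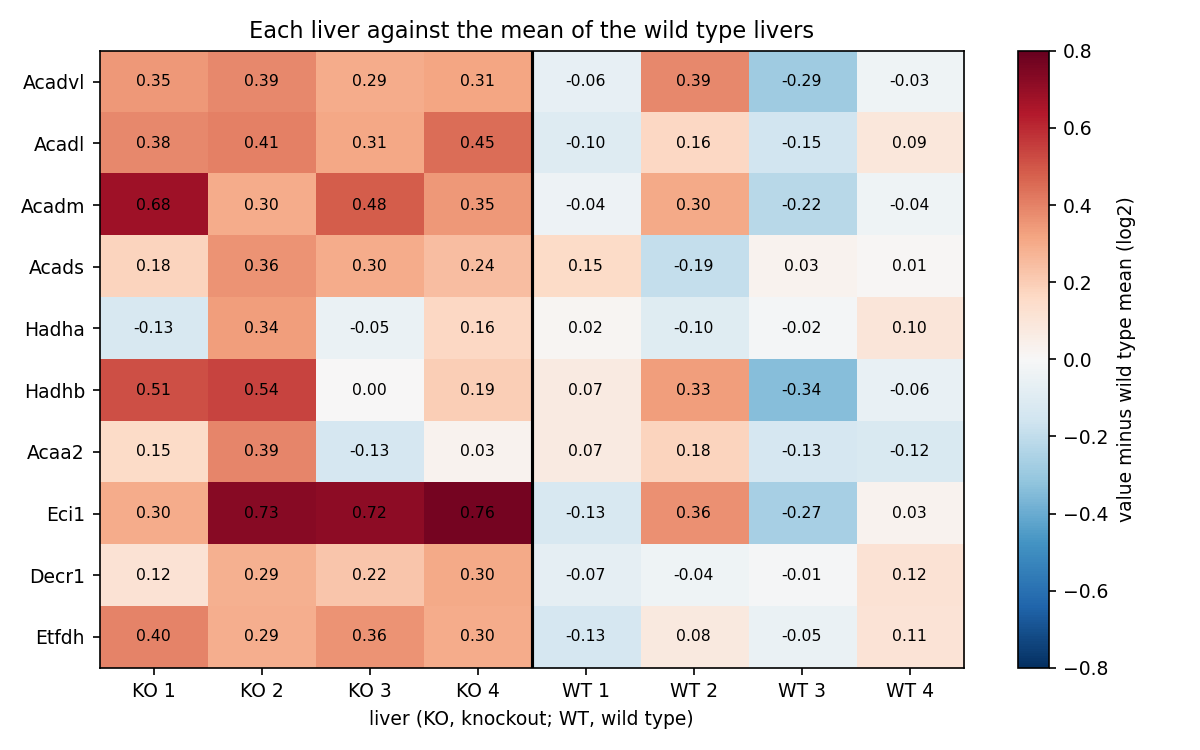
Value of each gene in each liver minus the mean of the 4 wild type livers (log2), with knockout livers on the left and wild type livers on the right. Knockout 2 and knockout 4 were above the wild type mean in all 10 genes, and wild type 2 was above it in 7.

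The gene of the spiral with the lowest p outside the 10 was Eci2, an enoyl-CoA isomerase found in mitochondria and peroxisomes, in a list of 10 further spiral and electron transfer genes. Its level was 9.48 ± 0.15 in the knockout and 8.82 ± 0.31 in the wild type (mean ± SD, n = 4 each), a difference of 0.67 ± 0.15 (SE, adjusted p 0.0905). In that list 0 of 10 genes passed, 9 had higher means in the knockout, and the median was 0.23. Of the 5 measured genes of the carnitine shuttle, which brings long chains into the matrix, 0 passed and all 5 had higher means, with a median of 0.29. Cpt1a, its rate-limiting enzyme, had 9.94 ± 0.18 in the knockout and 9.40 ± 0.33 in the wild type (difference 0.53 ± 0.17, adjusted p 0.215). The 4 acyl-CoA dehydrogenases of amino acid breakdown included 0 past the threshold, at a median of 0.24, and Ivd, the isovaleryl-CoA dehydrogenase, had the lowest p (0.44 ± 0.12, adjusted p 0.159).

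In the peroxisomal spiral 1 of 9 measured genes rose and 1 fell past the threshold, and 8 had higher means in the knockout, with a median of 0.54. The gene that fell was Hsd17b4. The highest difference in the list, 1.43 ± 0.28, was that of Ehhadh, which did not pass (limma adjusted p 0.0569) and was named after its values were seen. Acaa1a, a peroxisomal thiolase, rose by 0.56 ± 0.11 (adjusted p 0.0499), with means of 6.81 ± 0.17 in the knockout and 6.24 ± 0.09 in the wild type. Its call held without knockout 2 and was lost without any 1 of the other 7 arrays, with adjusted p up to 0.179. Of 10 measured mitochondrial reference genes, from the citrate cycle, respiratory chain, ATP synthase, outer membrane channel and mitochondrial DNA upkeep, 0 passed. Of these 5 had higher and 5 lower means, with a median of 0.02 and a range from -0.21 to 0.19. Cs, the citrate synthase, had the lowest p (-0.21 ± 0.11, adjusted p 0.491). Whether the members differ from these reference genes was not tested.

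Of the ketone body synthesis list 2 of 4 genes were measured, with 0 past the threshold, and Acat1, which joins acetyl-CoA units, was at -0.28 ± 0.13 (adjusted p 0.448). Among 6 transcription factors and coactivators of fatty acid oxidation 0 passed, with a median of 0.22. Ppargc1b, a coactivator, had the lowest p (0.60 ± 0.20, adjusted p 0.257). Ppara, the gene of PPARalpha itself, named after its values were seen, had 8.26 ± 0.27 in the knockout and 8.25 ± 0.28 in the wild type (difference 0.01 ± 0.17, adjusted p 0.988). These lists and the members share the same 8 livers, so their medians are values side by side.

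**Figure D4:**
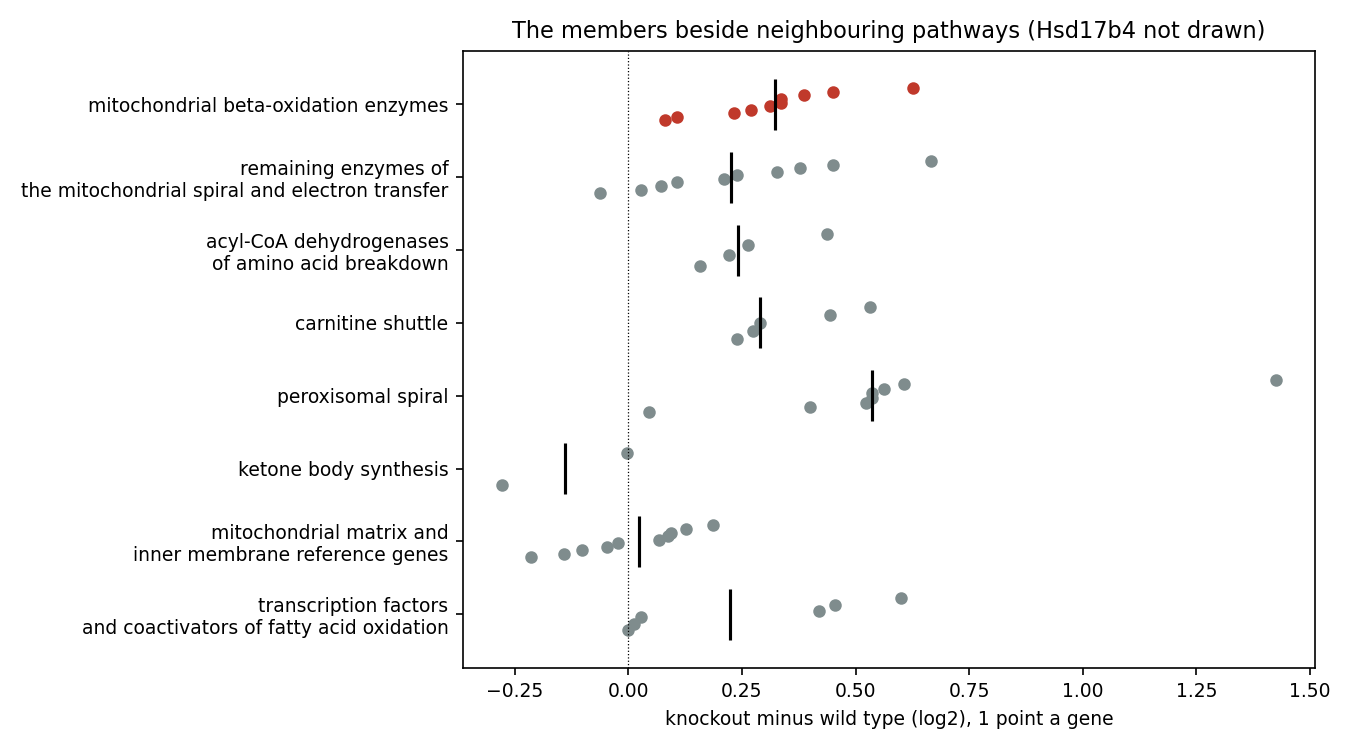
Difference, knockout minus wild type (log2), of each gene of the members (top row) and of 7 neighbouring lists, with a vertical bar at each list's median; Hsd17b4, at -4.66, counts in the peroxisomal median but is not drawn. All 10 members lie above 0, the 10 mitochondrial reference genes lie on both sides of it, and the peroxisomal spiral has the highest median, 0.54.

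Erythroid markers were lower in the knockout livers. All 6 measured erythroid markers of 9 listed had lower means in the knockout, and their groups did not overlap, where separation on the lower side was seen in 5.02% of all genes. Rhag, a membrane protein of red cells, fell by 0.80 ± 0.15 (SE, adjusted p 0.048) and Hbb-bh1, an embryonic globin, by 1.32 ± 0.19 (adjusted p 0.0278). The call on Rhag held without knockout 1 and was lost without any other array, and that on Hbb-bh1 was lost without knockout 1, 3 or 4 or wild type 3 or 4. The mean of the 6 markers lay between 7.73 and 8.53 in knockout livers and between 8.99 and 9.19 in wild type livers. The mean of 6 hepatocyte markers lay between 12.31 and 12.60 in knockout livers and between 12.22 and 12.35 in wild type livers, with 0 past the threshold. Of these 4 had higher and 2 lower means in the knockout, with a median difference of 0.17. Apoa1 and Fgb, which encode an apolipoprotein and a fibrinogen chain, were the 2 whose groups did not overlap. Their differences were 0.12 ± 0.08 and 0.31 ± 0.09 (SE, limma adjusted p 0.634 and 0.187). Separation on the higher side was seen in 3.59% of all genes. Alb and Ttr, with Apoa1 the brightest of the 6 markers, were at -0.05 ± 0.08 and -0.18 ± 0.11. Cps1 and Tat, the dimmest of the 6, were at 0.21 ± 0.14 and 0.33 ± 0.30. The brightest markers lie near the top of the array's range, and whether differences are understated there was not tested. The marker mean therefore does not show equal hepatocyte content. In whole liver, fewer cells of a type and less RNA per cell cannot be told apart, and the part of the cell mixture in the members' differences was not tested. With the erythroid mean as a covariate, in a fit where it nearly coincides with genotype, the median of the 10 genes was 0.32 and the limma adjusted p was at least 0.947 for each. That fit called 0 of all 45037 probe sets, and 0 of the 10 genes had an unadjusted p under 0.05 in it. The muscle and brown fat markers, from tissues rich in beta-oxidation, averaged 2.88 to 3.09 in knockout and 2.88 to 3.07 in wild type livers, below the array medians, with Ckm alone of the 5 above them.

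**Figure D5:**
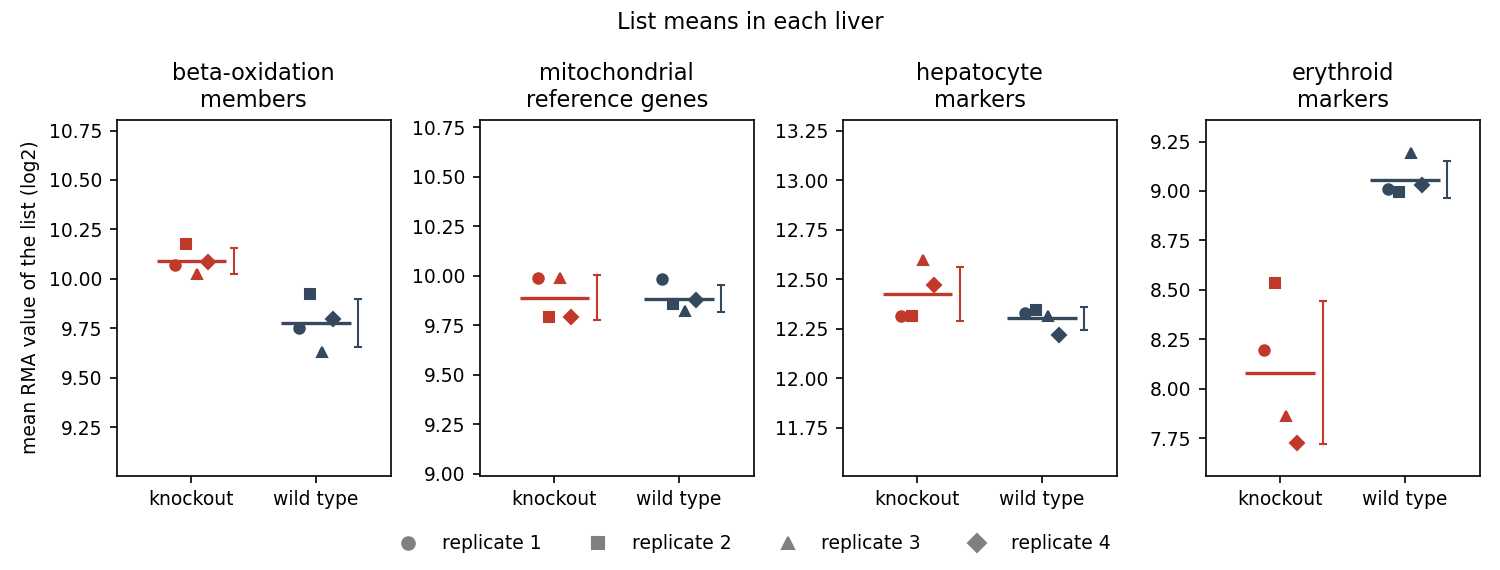
Mean RMA value (log2) per liver of the 10 members, of 10 mitochondrial reference genes, of 6 hepatocyte markers and of 6 erythroid markers, knockout left and wild type right, with lines at the mean and bars for the SD over 4 livers; every panel spans the same range. The members' mean lay between 10.03 and 10.18 in knockout livers and between 9.63 and 9.93 in wild type livers.

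The 5 genes whose values followed the members' mean most closely were found by Pearson's r between deviations from the genotype mean, over 8 livers and among 9086 genes. They were Gpt2, a mitochondrial alanine aminotransferase (r = 0.98), App, the amyloid precursor protein gene (r = 0.98), Fgf21, a hormone that liver secretes in fasting (r = 0.97), Igsf5 (r = 0.96) and Retsat, a retinol saturase (r = 0.96). These r have no p, since the genes were the top of a search over those 9086 genes, out of 18193 measured. Fgf21 had 4.663, 5.499, 4.154 and 5.273 in the knockout livers, against 4.494, 6.756, 3.502 and 4.999 in the wild type livers. Wild type 2 was the highest and wild type 3 the lowest of the 8 livers, the same livers that were most often highest and lowest among the wild type in the members. This match comes with the choice of Fgf21 by its r with the members' mean, so it is no separate result. The genotype difference of Fgf21 was -0.04 ± 0.59 (limma adjusted p 0.989). Retsat had 9.39, 10.01, 9.35 and 9.39 in the knockout livers, against 8.58, 9.36, 7.99 and 8.48 in the wild type livers, a difference of 0.93 ± 0.26 (adjusted p 0.17).

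Within genotypes the members did not all vary together. Acadvl and Acadl followed the mean of the other 9 members with r = 0.87 and 0.82 over the 8 livers, and Hadhb with r = 0.72. Acads had r = -0.51, Decr1 r = 0.07 and Hadha r = 0.11 by the same measure. These are descriptions over 8 arrays that share their normalization.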

How the data were processed

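The authors deposited log2 values, for which the submitters' processing notes name RMA; version: not given in the sources used here. RMA gives all arrays 1 distribution of probe values, so a change in total mRNA per liver cannot be seen and dim probe sets may understate differences. The table holds 45101 probe sets; 64 array controls were left out of the tests. The annotation gives 34945 of the rest 1 gene and 932 several, and 9160 are unnamed; 34741 Entrez identifiers matched RefSeq. Each gene was represented by its brightest probe set (mean over 8 arrays). Knockout was compared with wild type in limma 3.58.1 (R 4.3.3; lmFit, eBayes, two-sided, no covariate), with Benjamini-Hochberg adjustment over 45037 probe sets. The number of arrays, 4 against 4, limits precision. The fit was tested on simulated data, whose changes were larger in size than the difference of every member but Eci1. Recovery of changes as small as those of most members was not tested.

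The members, 7 neighbouring lists and 9 marker lists were chosen with earlier results of these data known. Named are Hsd17b4, the members and the 5 genes most like the members' mean. Of each neighbouring list, up to 3 genes past the threshold, or else the lowest p, are named. Marker genes, Ppara and Ehhadh were named after their values were seen. Alternatives covered a filter, normalization, variance estimation, array weights, blocks, covariates and left-out arrays.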

Additional observations from a re-analysis of the deposited data

Results flagged for a closer look

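In 34 groups of 4 livers, 17 probe sets by 2 genotypes, a single liver stood far from the other 3 of its group in 2, by Dixon's ratio of the gap to the range, and chance gives about 1 in 20 groups. Both were knockout 1. Knockout 1 also had the highest excess of 3' over 5' actin signal, 0.862, and whether RNA quality plays a part was not tested. In Eci1 it had 9.11, below the 9.54 to 9.58 of the other knockout livers. In the dimmest of the 3 probe sets of Hadhb it had 6.07, above the 5.57 to 5.65 of the others.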

How the results depend on the processing

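The count of members past the threshold was 0 in limma, as probe sets and as genes, with 7 at an unadjusted p under 0.05. It was 1 with array weights (Eci1, 0.68, adjusted p 0.0491), between 0 and 1 with each array left out in turn, and 1 without wild type 2 plus the 2 sets of arrays as a block (Eci1, 0.77, adjusted p 0.0354), an alternative chosen after seeing the data. The 1 with an array left out was Eci1, without wild type 2. The other alternatives gave 0. Among them was a fit with the hepatocyte mean as a covariate, also chosen after seeing the data. In that fit 5 members, as genes, had an unadjusted p under 0.05, and the median difference was 0.35. Eci1 was at 0.52 (limma adjusted p 0.528), and the lowest limma adjusted p of a member was 0.42, in Acadl. That fit called 5 genes in all. The difference of Hadha reversed to -0.0037 without knockout 2, in a range up to 0.15 with 1 array left out. The median difference lay between 0.26 and 0.39 with an array left out, and between 0.24 and 0.39 over all 22 alternatives, lowest with the mean of all probe sets of a gene. With that mean Decr1 was at 0.02, Hadhb at 0.18, Acaa2 at 0.05 and Etfdh at 0.20. With the erythroid covariate Hadhb was at 0.70, Acaa2 at 0.54, Hadha at 0.29 and Eci1 at 0.35, the cause was not tested. The same-numbered livers are tied by no label, and their deviations correlated at -0.0039, 0.07, 0.17 and 0.26, with 3 of 8 livers closest to their own number. With the replicate block 0 members passed and the median was 0.32, and Eci1 had an adjusted p of 0.109. The number of genes called in all, 209, was 0 with the erythroid covariate, 3 in replicates 1 and 2 alone, 9 with that block, 5 without knockout 4 and 545 with array weights. The count of 7 members, as genes, at an unadjusted p under 0.05 was 0 with the erythroid covariate. It was 0 in replicates 1 and 2 alone and 4 in replicates 3 and 4 alone. Of the 17 probe sets 2 lay below the array medians.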

Other observations

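Markers of the other liver cells gave these values. Neutrophil and precursor markers had lower means in the knockout in 7 of 7 genes, with a median of -0.24 and 0 past the threshold. Their mean lay between 10.58 and 11.20 in knockout livers and between 10.83 and 11.27 in wild type livers. B cell precursor markers had a median of -0.46 over 4 measured genes, with 0 past the threshold. The medians were -0.03 for 5 Kupffer cell, 0.11 for 4 bile duct, -0.05 for 4 stellate cell and fibroblast and -0.08 for 4 sinusoidal endothelium markers, each with 0 past the threshold.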
